A study of Aedes aegypti with 6 samples.

Results

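Antimicrobial peptide genes encode short secreted proteins that insects release against bacteria and fungi. The 6 genes described here, of the 12813 measured, were taken by identifier from a list that names AAEL003832, AAEL003841 and AAEL003857 as defensins, AAEL004522 as gambicin, AAEL004833 as diptericin and AAEL003389 as attacin. All 6 were found in the deposited table, each with 1 transcript. The names are those of that list, because the table holds identifiers only and 0 of its identifiers were found in the reference table used here.

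Testes were dissected from males of Aedes aegypti, a mosquito that carries yellow fever and dengue viruses, at the early pupal stage. Testes of the meiotic drive strain T37, whose males pass on a driving chromosome to more than its share of offspring, were hybridised to 3 arrays. Testes of the non-driving strain RED, reared under the same temperature, humidity and light, were hybridised to another 3. The labels call the replicates separately extracted testes, and nothing further tells whether a replicate pooled several males. With 1 strain of each kind, the drive cannot be told apart from any other difference between the strains.

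In mosquitoes and other insects, most antimicrobial peptides are made by the fat body, an organ like liver and adipose tissue combined, and by haemocytes, the blood cells. Bacterial wall fragments and fungi switch the genes on through the Toll and IMD pathways, which end in NF-kappaB factors. Defensins are compact cysteine-rich peptides known chiefly for action against Gram-positive bacteria, gambicin is a cysteine-rich peptide of mosquitoes, and diptericins and attacins are glycine-rich proteins known for action against Gram-negative bacteria. The question for a testis dissection was whether single arrays carried more of these transcripts, as fat body or blood cells taken along with the organ or an immune response in some animals would give. In bulk tissue, more cells of one type and more RNA per cell cannot be told apart. Defining markers of fat body, haemocytes and testis were not used here, since no source at hand ties their names to the identifiers of the table. Whether any value below reflects those cells or an immune response was therefore not tested.

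Brightness on these arrays depends on the probes as well as on the transcript, so levels are compared between arrays for 1 gene and not between genes. The deposited intensities had close medians, from 1785 to 1907 over the 6 arrays after averaging transcripts per gene. The dim end differed more. The 5th percentile of intensity was 123, 127 and 165 on T37 replicates 1, 2 and 3, and 195, 175 and 88.7 on RED replicates 1, 2 and 3. RED replicate 3 stood apart from the other arrays over the whole table: 16.7% of all genes were at least 2-fold off their own mean on it, against 11.1% on RED replicate 1 and 3.88% to 5.18% on the other 4. Results are therefore given with and without RED replicate 3. Within T37, replicate 3 was at least 2-fold above both other T37 arrays for 6.31% of all genes. On T37 replicates 1 and 2 this share was 0.187% each. The strain test without replicate 3 of both strains is given in the last section.

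The antimicrobial peptide genes varied over the 6 arrays more than most genes did. Their median range from lowest to highest array was 2.28 on the log2 scale, against 1.11 over all genes. The range of 5 members was wider than that of at least 83.3% of genes, and that of attacin, the exception, was wider than that of 57.7%. All members but AAEL003841 and AAEL003857 were among the dimmest 25% of genes by mean log2 intensity. No comparison was made with genes of like brightness. AAEL003841 and AAEL003857 had almost the same profile, so their ranges are not independent. The median SD between arrays of a strain was 0.55 in T37 and 1.11 in RED, against 0.26 and 0.35 over all genes. In RED all 6 had an SD above the median gene, but in T37 diptericin and attacin, with SDs of 0.24 and 0.22, were below it. None of the 6 passed the strain comparison on all arrays (limma adjusted p under 0.05 over the 12813 genes, a test that 4.53% of all genes passed), and 1 of 6 had an unadjusted p under 0.05, as 22.7% of all genes did.

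**Figure D1:**
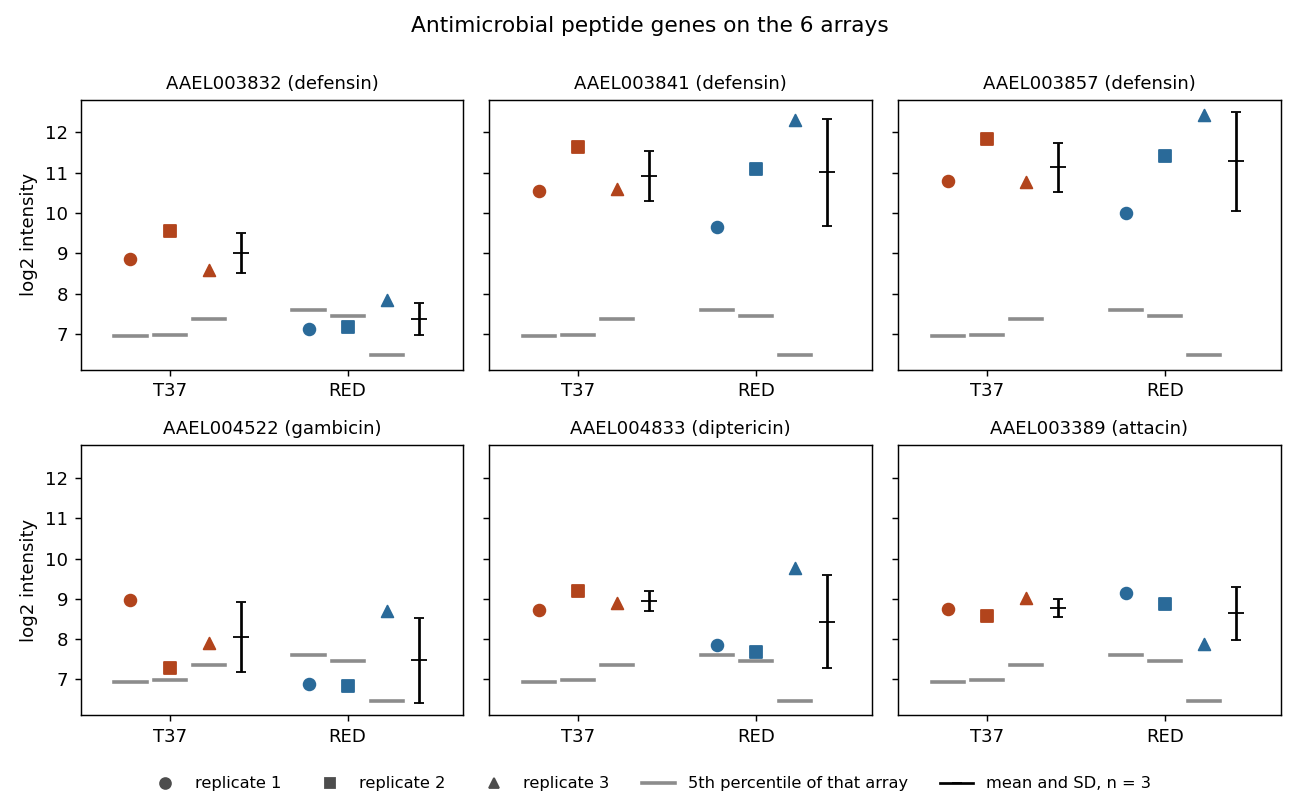
Log2 intensity of each gene on each array, with T37 left of RED and 1 symbol per replicate number; grey bars mark the 5th percentile of the array and black bars the mean and SD of the 3 arrays. AAEL003832 is the gene whose T37 values all lie above its RED values, and RED replicate 3 is the highest RED array for every gene except the attacin AAEL003389.

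The defensin AAEL003832 was the member with the clearest strain difference. Its intensity was 462, 756 and 386 on T37 replicates 1, 2 and 3, and 140, 143 and 228 on RED replicates 1, 2 and 3. Every T37 array was thus brighter than every RED array, which held for T37 over RED in 15.4% of all genes. The mean log2 intensity was 9.002 ± 0.50 in T37 and 7.37 ± 0.40 in RED (n = 3 each, ± SD). The difference, T37 minus RED, was 1.63 (SE 0.33, 95% interval 0.82 to 2.43), or 3.09-fold, with a limma adjusted p of 0.052, just short of the threshold. Without RED replicate 3, it was 1.86 (95% interval 1.09 to 2.63; limma adjusted p = 0.029), and AAEL003832 then passed. It also passed after each array was centred on its median (limma adjusted p = 0.044). With quantile normalisation and cyclic loess it did not (limma adjusted p = 0.078 and 0.070). Over the 6 fits that leave out 1 array its limma adjusted p ranged up to 0.19. Of the 17 alternative settings that gave it a value, it passed in 5. On RED replicates 1 and 2 its log2 intensity lay 0.48 and 0.29 below the 5th percentile of the array, so that its level there is a value at the dark end of the scale.

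The other defensins, AAEL003841 and AAEL003857, followed a different course. AAEL003841 had intensities of 1486, 3176 and 1536 on T37 replicates 1, 2 and 3, and of 804, 2177 and 5041 on RED replicates 1, 2 and 3. AAEL003857 had 1766, 3649 and 1760 on T37 replicates 1, 2 and 3, and 1025, 2718 and 5548 on RED replicates 1, 2 and 3. For both genes RED replicate 3 was the brightest of the 6 arrays and RED replicate 1 the darkest, so that the RED arrays enclosed the T37 arrays. Between the darkest and the brightest array AAEL003841 spanned 6.27-fold and AAEL003857 5.41-fold, wider ranges than 90.8% and 88.6% of all genes.

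Neither of these defensins differed between strains beyond that spread. AAEL003841 had a mean log2 intensity of 10.92 ± 0.62 in T37 and 11.01 ± 1.33 in RED (n = 3 each, ± SD), a difference of -0.09 with a 95% interval from -1.79 to 1.60 (limma adjusted p = 0.96). AAEL003857 stood at 11.13 ± 0.61 in T37 and 11.28 ± 1.22 in RED (n = 3 each, ± SD), a difference of -0.15 with a 95% interval from -1.73 to 1.43 (limma adjusted p = 0.93). The intervals reach to 3.02-fold higher in T37 for AAEL003841 and 2.70-fold higher for AAEL003857, so that 3 arrays a strain bounded the difference only loosely. The sign itself rested on single arrays: without RED replicate 3 the differences were 0.55 and 0.43 for AAEL003841 and AAEL003857, with limma adjusted p = 0.52 and 0.62.

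The profiles of AAEL003841 and AAEL003857 were almost the same. After each gene was centred on its own mean over the 6 arrays, they differed by a root mean square of 0.074 on the log2 scale. Each was the gene most like the other among the 12812 other genes, rank 1 in both directions. Their log2 difference, AAEL003841 minus AAEL003857, was lowest on RED replicate 1, at -0.35, and highest on RED replicate 3, at -0.14, a spread of 0.21 where each gene on its own spread by more than 2. The defensin AAEL003832 was far from both in this measure, at 1.04 from either, and ranked 8994 and 9511 in likeness to AAEL003841 and AAEL003857. Probe sequences were not used here, so it was not tested whether the probes of AAEL003841 and AAEL003857 each read their own transcript or also that of the other gene. Counts of members below are therefore given for all 6 and, where the pair weighs on them, also for 5 profiles with AAEL003841 and AAEL003857 averaged into 1.

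Gambicin, AAEL004522, was high on 1 array of each strain. Its intensity was 502, 155 and 242 on T37 replicates 1, 2 and 3, and 119, 114 and 415 on RED replicates 1, 2 and 3. T37 replicate 1 was the brightest array and RED replicate 3 the next, while RED replicates 1 and 2 lay 0.72 and 0.61 on the log2 scale below the 5th percentile of the array. The mean log2 intensity was 8.05 ± 0.86 in T37 and 7.47 ± 1.06 in RED (n = 3 each, ± SD), a difference of 0.58 with a 95% interval from -1.001 to 2.16 (limma adjusted p = 0.67). Without RED replicate 3 the difference was 1.19, with all T37 arrays above the 2 RED arrays that remained, and it still missed the threshold (limma adjusted p = 0.15). It shrank to 0.12 without T37 replicate 1, to 0.29 without RED replicate 1, to 0.26 without RED replicate 2 and to 0.14 with values below the 5th percentile set to it, with limma adjusted p from 0.89 to 0.98.

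Diptericin, AAEL004833, was steady in T37 and split in RED. Its intensity was 422, 590 and 476 on T37 replicates 1, 2 and 3, and 230, 206 and 877 on RED replicates 1, 2 and 3. The T37 arrays lay between the RED arrays, with RED replicate 3 as the brightest of the 6. RED replicates 1 and 2 were only 0.24 above the 5th percentile of their arrays on the log2 scale. Its mean log2 intensity was 8.94 ± 0.24 in T37 and 8.44 ± 1.16 in RED (n = 3 each, ± SD), a difference of 0.50 with a 95% interval from -0.89 to 1.89 (limma adjusted p = 0.67). Without RED replicate 3 the difference was 1.17 (95% interval 0.64 to 1.70), or 2.26-fold, and it passed the test (limma adjusted p = 0.035). It was 0.21 without RED replicate 1 and 0.13 without RED replicate 2, with limma adjusted p = 0.92 and 0.93, so the size rested on which RED arrays were used.

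Attacin, AAEL003389, ran against the other members. Its intensity was 429, 383 and 517 on T37 replicates 1, 2 and 3, and 566, 472 and 237 on RED replicates 1, 2 and 3. RED replicate 3, where AAEL003841, AAEL003857 and diptericin were brightest, was its darkest array, and RED replicate 1 its brightest. The mean log2 intensity was 8.78 ± 0.22 in T37 and 8.64 ± 0.66 in RED (n = 3 each, ± SD), a difference of 0.14 with a 95% interval from -0.72 to 1.003 (limma adjusted p = 0.86). Without RED replicate 3 the difference was -0.23 (limma adjusted p = 0.50). Attacin kept close to the dim end of each array: it lay 1.42 to 1.80 above the 5th percentile on the log2 scale, a spread of 0.38 over the 6 arrays, while its intensity itself spread by 1.25. For the other members the spread above the 5th percentile was 2.94 to 3.78, larger than that of their intensities. The part of the dim end in the attacin values was not tested further.

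No array was the darkest or the brightest for most members. RED replicate 1 was the darkest of the 6 arrays for 3 members, the defensins, as it was for 20.3% of all genes, and RED replicate 3 the brightest for 3, as for 25.1% of all genes. Within RED, replicate 3 was the brightest for 5 of 6 members (39.2% of all genes), and within T37, replicate 2 was the brightest for 4 of 6 (30.3% of all genes). With AAEL003841 and AAEL003857 as 1 profile, these counts were 2, 2, 4 and 3 of 5. The median over the 6 genes of the log2 intensity minus the gene's own mean was 0.034, 0.57 and 0.18 on T37 replicates 1, 2 and 3, and -0.97, -0.40 and 1.01 on RED replicates 1, 2 and 3. The mean over the 6 genes was 0.18, 0.43 and 0.043 on T37 replicates 1, 2 and 3, and -0.81, -0.41 and 0.57 on RED replicates 1, 2 and 3, so that by the mean RED replicate 3 and T37 replicate 2 were closer to each other. With the defensin pair as 1 profile, the median was 0.034, 0.52 and 0.21 on T37 replicates 1, 2 and 3, and -0.88, -0.93 and 0.93 on RED replicates 1, 2 and 3. The median over all 12813 genes lay between -0.055 and 0.033. On RED replicate 1 attacin was the sole member above its own mean, and on RED replicate 3 AAEL003832 and attacin were the 2 members below theirs. The dim end of the arrays ran the opposite way, since RED replicate 1 had the highest 5th percentile and RED replicate 3 the lowest. With every value under the 5th percentile of its array raised to it, which touches AAEL003832 and gambicin, the median shift was -0.78 on RED replicate 1 and 0.90 on RED replicate 3.

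**Figure D2:**
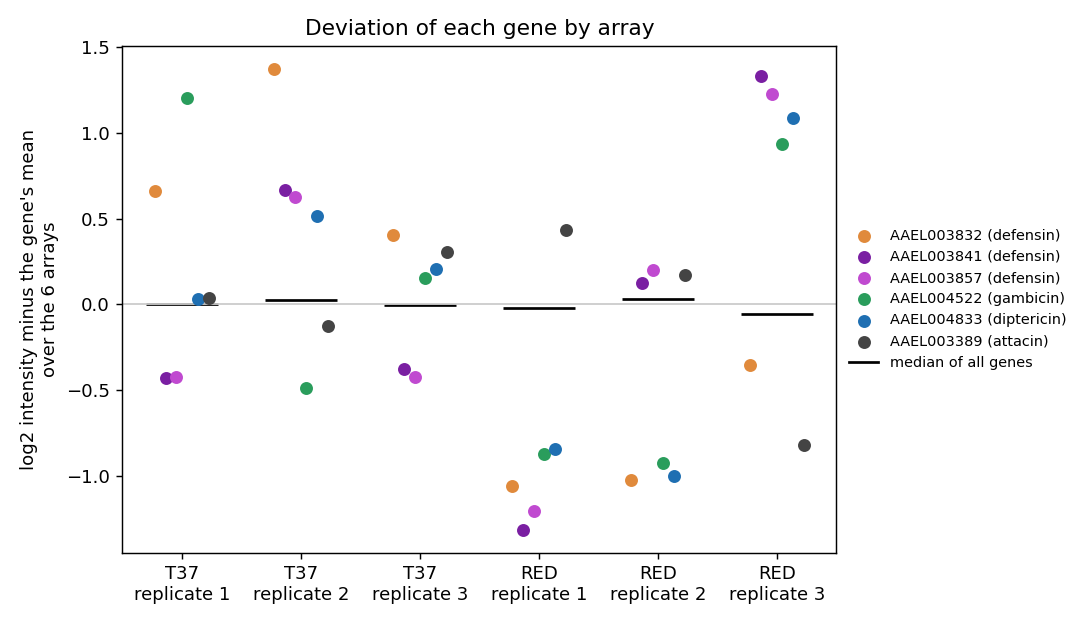
Log2 intensity of each gene minus its own mean over the 6 arrays, by array, with the median of all 12813 genes as a black bar. The medians of all genes stay between -0.055 and 0.033, while the members reach from -1.32 for AAEL003841 on RED replicate 1 to 1.37 for AAEL003832 on T37 replicate 2.

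The next comparison asked how far RED replicate 3 exceeded the arrays of its own strain, a choice made after the values were seen. Defensins AAEL003841 and AAEL003857, gambicin and diptericin were 3.81-fold, 3.32-fold, 3.57-fold and 4.03-fold brighter on RED replicate 3 than the mean of RED replicates 1 and 2 on the log2 scale. Each of these 4 was at least 2-fold above both other RED arrays, a margin that 6.84% of all genes reached on RED replicate 3. AAEL003832 was 1.61-fold brighter on it and attacin 2.18-fold darker. All genes had a median log2 difference of -0.029 in this comparison, and the 4 members lay at percentiles 96.9 to 97.7 of all genes. The fold of gambicin is against RED values under the 5th percentile and that of diptericin against values just above it. With values below that percentile set to it, gambicin was 2.25-fold brighter, at percentile 93.4, and diptericin stayed at 4.03-fold, while 6.57% of all genes were then at least 2-fold above both other RED arrays. These values describe 1 array, with no replicate of it. With AAEL003841 and AAEL003857 counted as 1, 3 of 5 members stood 2-fold above both other RED arrays.

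**Figure D3:**
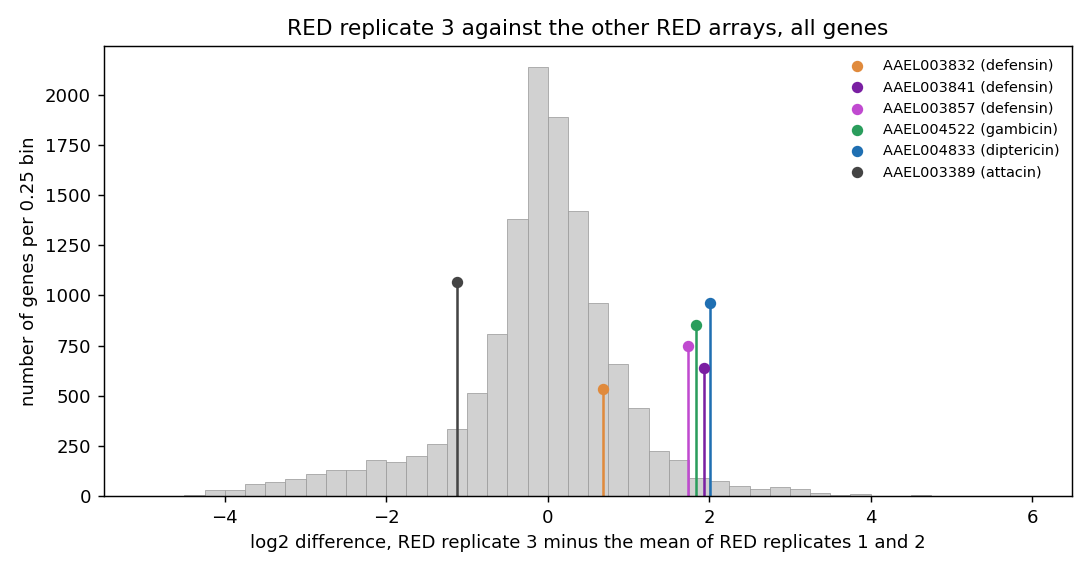
Number of genes by the log2 difference of RED replicate 3 minus the mean of RED replicates 1 and 2, for all 12813 genes in bins of 0.25, with the 6 members marked by lines whose height carries no meaning. Diptericin, AAEL003841, gambicin and AAEL003857 lie between 1.73 and 2.01, AAEL003832 at 0.69 and attacin at -1.12.

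RED replicate 3 was not the single source of the spread. On T37 replicate 2, AAEL003841 and AAEL003857 were both 2.07-fold above the next T37 array, a margin of at least 2-fold that 0.187% of all genes, 24 in number, reached on that array. On RED replicate 1 the same genes were 2.71-fold and 2.65-fold below the next RED array, where 0.351% of all genes were at least 2-fold below both others. Gambicin was 2.08-fold above the next T37 array on T37 replicate 1, where again 0.187% of all genes reached 2-fold. The arrays on which gambicin stood high in T37 and those on which the defensins did were thus different: on T37 replicate 2, the brightest T37 array for all 3 defensins and diptericin, gambicin was at its T37 minimum. These arrays are named because members reached the margin on them, a choice made after the values were seen. AAEL003841 and AAEL003857 are not independent cases, as their profiles were almost the same. On T37 replicate 3, 0 of 6 members were at least 2-fold above both other T37 arrays, as 6.31% of all genes were. On RED replicate 3, 0 of 6 were at least 2-fold below both other RED arrays, as 12.1% of all genes were.

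Against all 5 other arrays, no array stood apart by 2-fold for any member. Of the 12 gaps, from the brightest array to the next and from the darkest to the next for each gene, 0 reached 2-fold, where 3.08% of all genes had such a gap at the top and 5.78% at the bottom. With shares this small, a count of 0 does not set the members apart from other genes. A gap to the next array also passes over cases where several arrays are high together. The widest at the bottom was 1.85-fold, for AAEL003841 on RED replicate 1, and the widest at the top 1.64-fold, for AAEL003832 on T37 replicate 2. The smallest was 1.02-fold, between RED replicates 1 and 2 for AAEL003832.

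Besides the pair of defensins, the members did not share 1 profile. Apart from AAEL003857, diptericin was the member nearest to AAEL003841, at a root mean square difference of 0.59 on the log2 scale and rank 301 of the 12812 other genes. It was also nearest to gambicin, at 0.64 and rank 308. Attacin was the farthest member from each of the other 5, at 1.04 to 1.23. For AAEL003832 this was close to a tie, since AAEL003841 and AAEL003857 also lay at 1.04 from it. Among genes outside the list, AAEL008723 and AAEL001065 had the profiles closest to the mean of the 6 members, at 0.084 and 0.089 over the 6 arrays. AAEL008723 had log2 intensities of 9.60, 9.78 and 9.42 on T37 replicates 1, 2 and 3, and of 8.58, 8.81 and 9.77 on RED replicates 1, 2 and 3. AAEL001065 had 9.95, 10.19 and 9.91 on T37 replicates 1, 2 and 3, and 9.22, 9.43 and 10.41 on RED replicates 1, 2 and 3. With so many genes and 6 arrays, some profiles lie close to any other, so these are named as a description.

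Taken as a list, 4 of the 6 members had a positive difference between T37 and RED and 2 a negative one, with a median of 0.32 on the log2 scale, against -0.0099 over all genes, of which 49.3% were positive. The 2 negative ones are AAEL003841 and AAEL003857. With these as 1 profile, 4 of 5 were positive, and the median was 0.50. One member, AAEL003832, differed by at least 2-fold, as 10.7% of all genes did. Without RED replicate 3, 2 of 6 members, AAEL003832 and diptericin, passed the test as higher in T37, which 4.09% of all genes did, and 3 of 6 had all T37 arrays above the remaining RED arrays, which 23.3% of all genes did. RED replicate 3 is the array on which diptericin was brightest. Each fit without another single array called 0 of 6 members, with 0.078% to 2.44% of all genes passing in either direction.

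**Figure D4:**
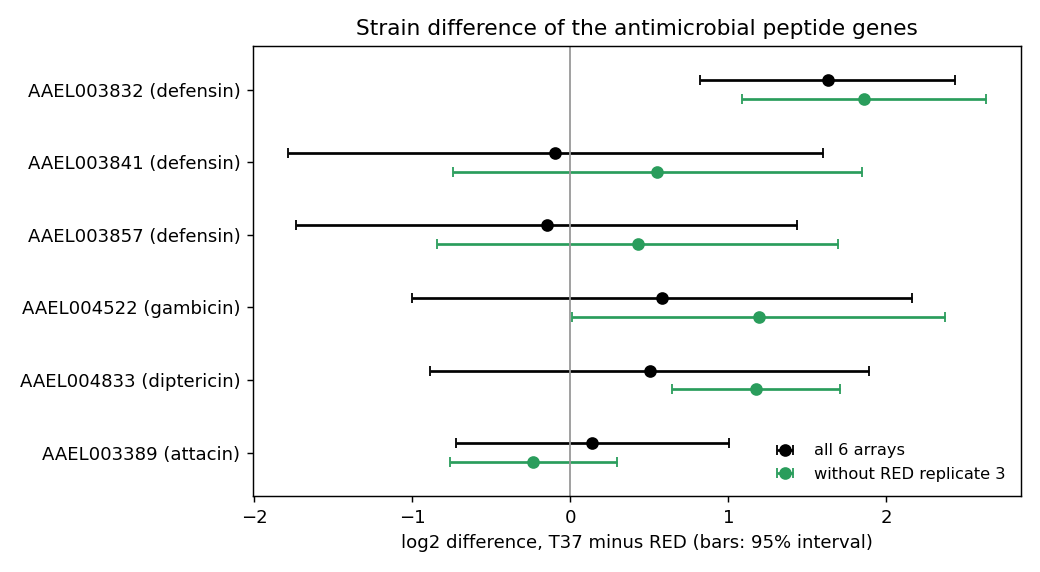
Difference in log2 intensity, T37 minus RED, for each gene with its 95% interval from limma, on all 6 arrays in black and without RED replicate 3 in green. On all arrays the interval of AAEL003832 alone lies above 0, and without RED replicate 3 those of gambicin and diptericin do as well. The intervals are not adjusted over genes. An unadjusted limma p under 0.05, in either direction, was reached by 2914 of 12813 genes on all arrays and by 4133 without RED replicate 3. AAEL003832 on all arrays and gambicin without RED replicate 3 did not pass the test (limma adjusted p = 0.052 and 0.15).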

How the data were processed

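Total RNA of pupal testes was labelled with Cy3 by NimbleGen, per the labels' protocols, and hybridised to one-colour arrays. The deposited values are 1 linear intensity per transcript and array, which the authors made with RMA, per the submitters' processing notes. RMA in its usual form corrects background, equalises probe distributions and summarises probes, and so can hide a shift of all genes. The deposited values per gene were still not alike at the dim end of the arrays. The RMA version, array design, probe sequences and build are not stated in the sources used here. No detection calls were used.

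Samples were grouped by title. The descriptions of the RED samples also mention T37, against their titles and strain labels. The log2 of each intensity was taken without a pseudocount, and transcripts of a gene were averaged. The strain test was that of limma (version 3.58.1, under R 4.3.3; two-sided moderated test from lmFit and eBayes, no covariate) over 12813 genes with Benjamini-Hochberg adjustment and a threshold of 0.05. With 3 arrays a strain an exact permutation test of 1 gene cannot go below 0.1, and the number of arrays limits the precision. The p-values set each strain difference against the spread between these arrays, moderated over all genes, and do not extend to other strains. The procedure was run on simulated data whose noise was alike on all arrays. In the real data RED replicate 3 stood apart, so that run cannot vouch for the calls given here. Likeness is the root mean square difference of centred log2 profiles. The rule for names was all 6 members and the 2 other genes closest to their mean profile. Members, lists and tests were chosen with earlier results of these data known. Lists of fat body, haemocyte, testis and immune pathway genes, to be matched by product name, had no identifiers and were not run. Replicate numbers were not taken as pairs, since the labels do not say that they pair arrays. Deviations from strain means correlated between same-numbered arrays at -0.25, -0.16 and -0.17 across genes. All array pairs compared ranged from -0.43 to 0.46, so these correlations cannot tell whether the arrays were paired.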

Additional observations from a re-analysis of the deposited data

How the results depend on the processing

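The count of members past the strain test was 0 of 6 and stayed 0 with the replicate block, quantile normalisation, cyclic loess, an intensity trend, a robust prior, dim values raised to the 5th percentile, transcripts tested singly and removal of the dimmest 25% of genes, which removes 4 of the 6 members. The block called 0 of all 12813 genes by limma, with 2467 at an unadjusted p under 0.05, of which 1 was a member. The labels do not say that the replicate numbers pair the arrays. Apart from the block, 4.12% to 7.39% of the genes tested passed in the settings that stayed at 0. Leaving out 1 array gave 0 to 2 members, with 2 only without RED replicate 3, where 7.47% of all genes passed. In the other fits without 1 array, 0.078% to 2.44% of all genes passed. It was 1 with median centring (AAEL003832, limma adjusted p = 0.044), 1 with the 5th percentile as a covariate (AAEL003832, 0.016), 2 with array weights (AAEL003832 and AAEL004833, while 30.0% of all genes passed) and 2 with replicate 3 of both strains left out (the same pair, with 32.9% of all genes passing). Array weights were lowest for RED replicate 3 (0.21) and T37 replicate 3 (0.40), the arrays that the last setting leaves out. These settings are therefore not independent. The cause of the higher counts was not tested. AAEL003832 kept its positive sign in all 17 alternatives that gave a value, at 1.35 to 2.11 on the log2 scale with limma adjusted p from 0.0056 to 0.19. AAEL004522 and AAEL004833 also stayed positive in their 17, at 0.12 to 1.26 and 0.13 to 1.20. The sign turned for AAEL003841 and AAEL003857 without T37 replicate 1 (0.096 and 0.025), without T37 replicate 3 (0.072 and 0.027), without RED replicate 3 (0.55 and 0.43, the highest of the fits that leave out 1 array, whose lowest were -0.78 and -0.79), without replicate 3 of both strains (0.72 and 0.60) and with array weights (0.64 and 0.53). For AAEL003389 it turned without RED replicate 3 (-0.23, where the other fits without 1 array reached 0.39), without replicate 3 of both strains (-0.35) and with array weights (-0.25). None of the 13 turned values passed the test. With a gap of 0.5 on the log2 scale in place of 2-fold, 7 of the 12 gaps counted. Without RED replicate 3, an alternative added after the data were seen, 1 gap reached 2-fold. The share over all genes was not computed for either setting, so these counts cannot be judged against a background. The median shift of the members on each array moved by less than the SD between arrays of its strain under the 3 other scalings, raised dim values and, both added after the data were seen, the mean over the members and the like defensins as 1 profile. AAEL003832 and AAEL004522 lay under the 5th percentile on 2 arrays each, where a fold is limited by the dark end of the scale.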
